A study of Rattus norvegicus with 10 samples.

Results

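The 7 genes described here, Slc12a2, Atp1b1, Fxyd2, Slc4a2, Slc4a7, Ano1 and Clcn2, encode transporters, pump subunits and channels for chloride, sodium and bicarbonate, grouped here as acinar transport genes. They were chosen by name, and every non-control probe whose RefSeq accession carries one of these symbols was taken, which gave 12 probes among 30367. All 7 genes passed the filter on dim probes and belonged to the 14711 genes tested, of 15168 genes with a named probe. The submandibular glands came from 5 spontaneously hypertensive rats (SHR), inbred animals that develop raised blood pressure, and from 5 Wistar-Kyoto rats (WKY), the related strain with normal pressure. All 10 were males aged 14 weeks, the labels name no treatment for either strain, and each gland's RNA was read on its own one-colour Agilent array. An array carries the numbers of its sample title, as in SHR 3-3.

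Acinar cells make the primary saliva. The sodium pump keeps sodium low in the cell, and the cotransporter NKCC1 uses that gradient to bring chloride in across the basolateral membrane. Anion exchange paired with sodium-driven transport of acid or bicarbonate is a parallel route. When a nerve signal raises calcium in the cell, the apical channel TMEM16A opens, chloride leaves, and sodium and water follow into the lumen.

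Values are log2 processed intensities minus the 75th percentile of the same array, and they are compared between arrays, never between probes. That percentile lay between 333 and 648, and 94.8% to 97.7% of spots were well above background. All 12 probes were well above background on 10 of 10 arrays, with 0 arrays saturated. Some were dim all the same. Processed intensity was 44 to 100 for Slc4a7, and 64 to 111 and 47 to 98 for the Clcn2 probes. The brighter Slc12a2 probe read 18051 to 33416. Whether low intensity made the differences of the dim probes smaller was not tested. Array SHR 3-3 stood apart: in 420 genes it was 2-fold or more under its strain's other arrays, against 31 to 45 genes in each of those, and its percentile was the lowest. Arrays with the same scan date are called a slide here and below, and no slide identifier was read. By that rule 4 SHR arrays shared slide 1, and WKY 1-2 and 1-3 shared slide 3. Slide 2 held both strains, namely SHR 2-1 and WKY 1-5, 4-1 and 4-2. Of 10 acinar markers 8 were measured, Aqp5, Bhlha15 and Chrm3 among them, each well above background on 10 of 10 arrays. Their summed level, in multiples of the array's 75th percentile, was 399 to 715 in SHR and 315 to 381 in WKY. Their mean log2 value ran the other way, at 3.07 to 3.58 in SHR and 3.78 to 4.12 in WKY, so the direction of the marker list depends on how it is summarised. Pip, a secreted salivary protein among the 8, averaged 8.26 ± 0.46 in SHR and 7.63 ± 0.08 in WKY. Of these 8 markers, 2 fell in SHR, the secretory protein genes Smgc (log2 difference −4.10) and Cyss (−4.06). The other 6 did not pass, and each of their differences was positive, at 0.16 to 0.63. In whole-gland RNA, fewer cells of a type and less RNA per cell cannot be told apart, and the cell type that gave each signal was not tested.

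The comparison asked which of these transport genes differ between the hypertensive strain and its control. None of the 7 passed, which means 0 of 7 at a limma adjusted p below 0.05 against 4.36% of all genes tested (1.51% higher and 2.85% lower). In a fit over all kept probes, 0 of the 12 member probes passed, against 3.84% of probes. At an unadjusted p below 0.05 there were 2 of 7, Slc12a2 and Slc4a2, against 20.3% of all genes, and likewise 2 of 12 probes against 19.2%. The strains overlapped in each of the 7 genes and 12 probes, that is 0 without overlap, against 7.25% of all genes and 6.71% of all probes. The median log2 difference of SHR minus WKY was 0.09 over the 7 genes and −0.02 over all genes tested, and the median size of the difference regardless of sign was 0.23 and 0.13. The difference was positive for 5 members and negative for 2. Among all genes 222 rose and 419 fell, so that 65.4% of the calls were lower, a share that was 50.5% on the authors' values, 53.5% after median scaling and 54.5% after quantile normalisation. Without SHR 3-3 the count of members past the threshold was still 0.

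**Figure D1:**
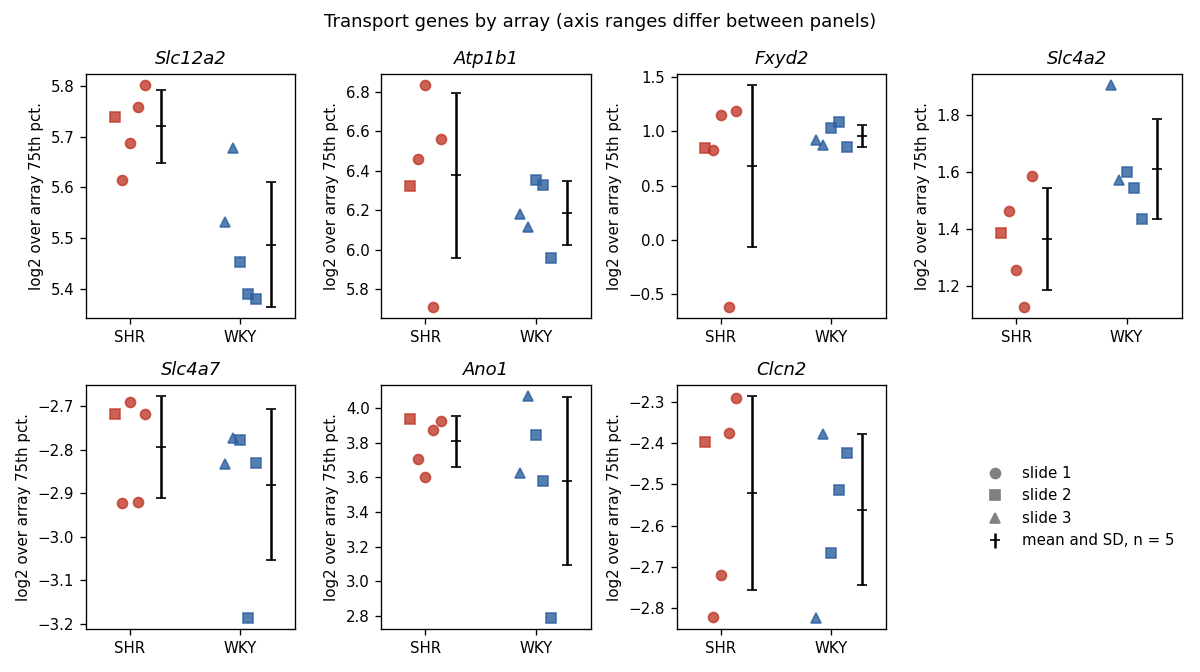
Log2 intensity over the array's 75th percentile for the 7 transport genes, 1 panel per gene with its own axis range. Each point is 1 array, and its shape is the slide, meaning arrays that share a scan date. The black mark is the mean with SD (n = 5 per strain). The strains overlap in every panel, most narrowly for Slc12a2, where WKY 1-3 at 5.68 lies above SHR 2-3 at 5.62.

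Slc12a2 encodes NKCC1, which carries sodium, potassium and chloride into the cell and is the main basolateral entry for chloride in salivary acini. Its brightest probe, spotted 10 times per array, had log2 values of 5.74, 5.62, 5.69, 5.76 and 5.80 in SHR 2-1, 2-3, 3-1, 3-3 and 3-4. In WKY 1-2, 1-3, 1-5, 4-1 and 4-2 the values were 5.53, 5.68, 5.45, 5.39 and 5.38. The groups overlapped because WKY 1-3 exceeded SHR 2-3 while the other 4 WKY arrays lay below every SHR array. The means were 5.72 ± 0.07 in SHR and 5.49 ± 0.12 in WKY (SD, n = 5 each), a log2 difference of 0.23 ± 0.08 SE (1.18-fold, 95% interval 0.05 to 0.42, limma adjusted p = 0.137). The dimmer probe gave 5.08 ± 0.15 in SHR and 4.97 ± 0.16 in WKY, a difference of 0.11 ± 0.10. On the authors' log2 values the levels of the brighter probe were 14.66 ± 0.17 in SHR and 14.58 ± 0.15 in WKY, and the difference was 0.08 ± 0.10. Quantile normalisation gave 0.10 and normexp with quantile normalisation 0.10, while array median scaling gave 0.27. Across these scalings the difference thus ran from 0.08 to 0.27.

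With the slide as a fixed block, where the difference rests on SHR 2-1 against the 3 WKY arrays of slide 2, Slc12a2 differed by 0.33 ± 0.15. With the slide as a random block the difference was 0.24 ± 0.07 and passed (limma adjusted p = 0.0203). The estimated correlation of arrays on a slide was −0.19 in that fit, and 1350 genes were then higher and 2101 lower.

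Atp1b1 encodes the beta-1 subunit of the sodium pump, the Na,K-ATPase, which takes the pump to the membrane. Its single probe had log2 values of 6.32, 6.46, 6.83, 5.71 and 6.56 in SHR 2-1, 2-3, 3-1, 3-3 and 3-4. The WKY values were 6.18, 6.12, 6.35, 6.33 and 5.96 in the order WKY 1-2, 1-3, 1-5, 4-1 and 4-2. SHR held both the highest array, SHR 3-1, and the lowest, SHR 3-3, and the WKY arrays lay between them. The strain means were 6.38 ± 0.42 in SHR and 6.19 ± 0.16 in WKY (SD, n = 5 each), a difference of 0.19 ± 0.17 SE (95% interval −0.19 to 0.57, limma adjusted p = 0.579). Without SHR 3-3 the difference was 0.36 ± 0.12, with an adjusted p of 0.109 in limma. On the authors' values it was 0.01 ± 0.23.

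Fxyd2 encodes the gamma subunit of the pump, a small membrane protein that adjusts its affinity for ions and is best known from the kidney. The brighter of its 2 probes gave 0.84, 0.82, 1.14, −0.62 and 1.19 in SHR 2-1, 2-3, 3-1, 3-3 and 3-4. WKY 1-2, 1-3, 1-5, 4-1 and 4-2 gave 0.92, 0.87, 1.03, 1.08 and 0.85. SHR 3-3 lay far below the other 9 arrays, and its processed intensity was 217 against 788 to 1432 in those. The remaining SHR arrays spanned the WKY range on both sides. The means were 0.68 ± 0.74 in SHR and 0.95 ± 0.10 in WKY (SD, n = 5 each), a difference of −0.27 ± 0.28 SE (95% interval −0.88 to 0.33, limma adjusted p = 0.623). Without SHR 3-3 the sign turned, to 0.05 ± 0.10 (limma adjusted p = 0.834). The second probe was also lowest in SHR 3-3, at −2.08, against −1.85 to −1.56 in the other 9 arrays. This probe was dimmer, with a processed intensity of 79 to 199, and the sizes of the gaps are not compared between probes. The strain difference of the second probe was −0.11 ± 0.11.

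In SHR 3-3 the markers of other cell types differed as well. The mean log2 value of the 12 measured duct markers was −0.05, against 1.27 to 1.59 in the other SHR arrays and 1.27 to 1.42 in WKY. The summed level of these duct markers was 216 to 391 in SHR, with SHR 3-3 lowest, and 263 to 293 in WKY. In mean log2 value, SHR 3-3 differed from the remaining SHR arrays by −0.98 for fibroblast, −0.80 for macrophage and dendritic and 0.47 for acinar markers. Myoepithelial, lymphocyte and plasma cell, adipocyte, skeletal muscle and erythrocyte markers differed by −0.29 to 0.23. Macrophage and dendritic markers summed to 6.78 to 14.1 in SHR and 15.3 to 22.0 in WKY over 13 genes. The part of these cell types in the values of Fxyd2 and Atp1b1 was not tested.

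The genes with array profiles nearest to that of Fxyd2, by the root mean square difference of centred log2 values over the 10 arrays, were Acp5 at 0.08, Lgals3 at 0.10 and Capg at 0.12, against a median of 0.56 for all genes. Acp5 encodes an acid phosphatase, Lgals3 galectin 3 and Capg an actin-capping protein. All 3 were low in SHR 3-3, by −1.46, −1.51 and −1.66 relative to the other SHR arrays, against −1.62 for Fxyd2.

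**Figure D2:**
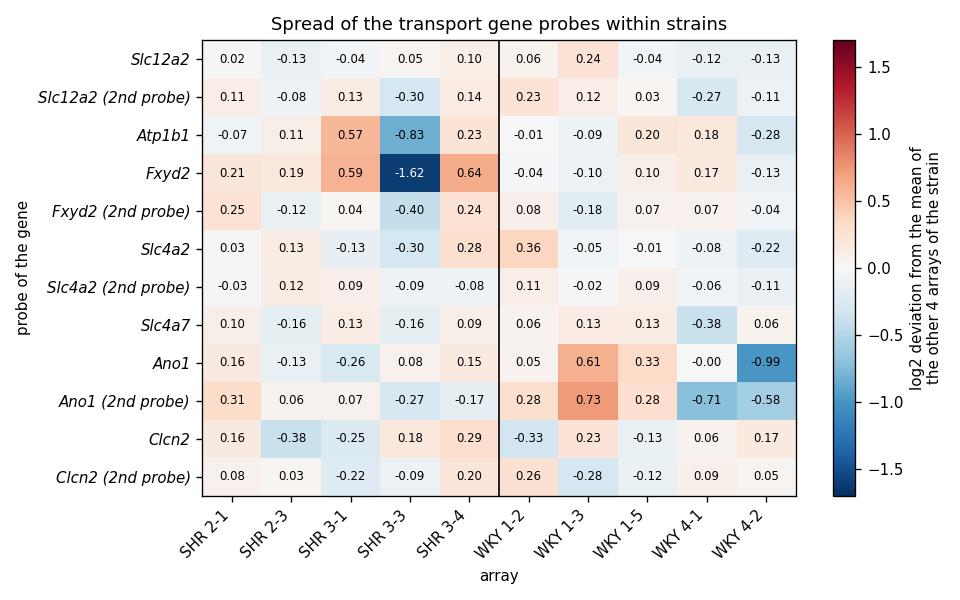
Log2 deviation of each array from the mean of the other 4 arrays of its strain, for the 12 probes of the 7 transport genes, SHR arrays left of WKY arrays. The deepest cell is Fxyd2 in SHR 3-3 (−1.62), followed by Ano1 in WKY 4-2 (−0.99) and Atp1b1 in SHR 3-3 (−0.83).

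Slc4a2 encodes AE2, an exchanger of chloride for bicarbonate that brings chloride into the cell. Its brighter probe read 1.38, 1.46, 1.26, 1.13 and 1.59 in SHR 2-1, 2-3, 3-1, 3-3 and 3-4. The WKY arrays read 1.90, 1.57, 1.60, 1.54 and 1.44 in WKY 1-2, 1-3, 1-5, 4-1 and 4-2. SHR 3-3 was the lowest array and WKY 1-2 the highest, and the strains overlapped through SHR 3-4, SHR 2-3 and the lower WKY arrays. The means were 1.36 ± 0.18 in SHR and 1.61 ± 0.17 in WKY (SD, n = 5 each), a difference of −0.25 ± 0.11 SE (0.84-fold, 95% interval −0.49 to −0.004, limma adjusted p = 0.238). The dimmer probe gave −1.72 ± 0.08 in SHR and −1.57 ± 0.08 in WKY, a difference of −0.15 ± 0.08. SHR 3-3 and WKY 1-2 were the extreme arrays on that probe too, and the difference had the same sign on both probes. With the slide as a fixed block it was −0.14 ± 0.21.

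Slc4a7 encodes NBCn1, which carries sodium and bicarbonate into the cell together without net charge. The log2 values of its single probe were −2.72, −2.92, −2.69, −2.92 and −2.72 in SHR 2-1, 2-3, 3-1, 3-3 and 3-4, and −2.83, −2.77, −2.78, −3.19 and −2.83 in WKY 1-2, 1-3, 1-5, 4-1 and 4-2. WKY 4-1 lay below all other arrays, and the rest of WKY lay within the SHR range. With means of −2.79 ± 0.12 in SHR and −2.88 ± 0.17 in WKY (SD, n = 5 each), the difference was 0.09 ± 0.10 SE (95% interval −0.13 to 0.30, limma adjusted p = 0.674). Without WKY 4-1 it was 0.01.

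Ano1 encodes TMEM16A, the calcium-activated chloride channel through which chloride leaves the acinar cell into the lumen. Its brighter probe, spotted 10 times, had values of 3.94, 3.70, 3.60, 3.87 and 3.93 in SHR 2-1, 2-3, 3-1, 3-3 and 3-4. In WKY 1-2, 1-3, 1-5, 4-1 and 4-2 they were 3.62, 4.07, 3.84, 3.58 and 2.79. The SHR arrays were close together, while WKY held both the highest array, WKY 1-3, and the lowest, WKY 4-2. The means were 3.81 ± 0.15 in SHR and 3.58 ± 0.48 in WKY (SD, n = 5 each), a difference of 0.23 ± 0.19 SE (95% interval −0.20 to 0.65, limma adjusted p = 0.544). Without WKY 4-2 the difference was 0.03. With the slide as a fixed block, which sets SHR 2-1 against WKY 1-5, 4-1 and 4-2, it was 0.53 ± 0.34.

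The dimmer Ano1 probe gave −1.72 ± 0.18 in SHR and −1.98 ± 0.49 in WKY, a difference of 0.26 ± 0.20. It placed WKY 4-2 (−2.44) and WKY 4-1 (−2.55) below all other arrays, whereas on the brighter probe only WKY 4-2 lay apart. The genes nearest to the profile of the brighter probe were Sipa1l2 at a distance of 0.12, Cdk12 at 0.18 and Npc1l1 at 0.18, against a median of 0.39 over all genes.

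Clcn2 encodes a chloride channel that opens on hyperpolarisation. On its brighter probe the SHR values were −2.40, −2.82, −2.72, −2.37 and −2.29 in SHR 2-1, 2-3, 3-1, 3-3 and 3-4, and the WKY values were −2.82, −2.38, −2.67, −2.51 and −2.42 in WKY 1-2, 1-3, 1-5, 4-1 and 4-2. The strains covered almost the same range. The means were −2.52 ± 0.23 in SHR and −2.56 ± 0.18 in WKY (SD, n = 5 each), a difference of 0.04 ± 0.13 SE (95% interval −0.23 to 0.31, limma adjusted p = 0.893). The other probe gave −0.02 ± 0.10, so the sign differed between the probes. Without SHR 3-4 or WKY 1-2 the sign of the brighter probe turned as well.

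**Figure D3:**
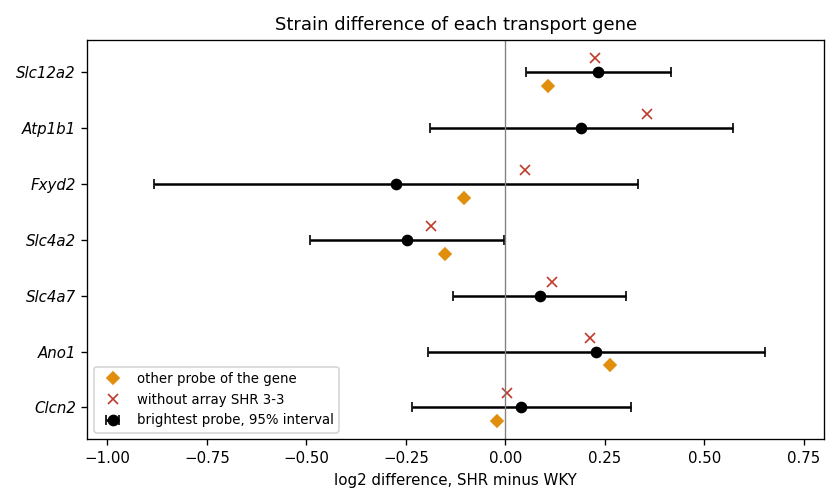
Log2 difference of SHR minus WKY for the 7 transport genes: black points with limma 95% intervals for the brightest probe, diamonds for the other probe of a gene, crosses without array SHR 3-3. The intervals of Slc12a2 and Slc4a2 lie on 1 side of 0 before adjustment, and the Fxyd2 cross (0.05) lies on the other side of 0 from its point (−0.27).

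The intervals set what these arrays could resolve, since the number of arrays limits the precision. The highest upper bound among the 7 genes was 0.65 for Ano1 and the lowest lower bound −0.88 for Fxyd2, both on the log2 scale. With the slide as a fixed block the differences not given above were 0.11 for Atp1b1, −0.14 for Fxyd2, 0.21 for Slc4a7 and 0.14 for Clcn2. On the authors' values Slc4a7 differed by 0.15 and Clcn2 by 0.10, with the same sign as above. The standard error had a median of 0.13 over the members and 0.11 over all genes. The within-strain SD was 0.10 for Slc12a2, less than that of 92.3% of genes tested, and 0.53 for Fxyd2, 0.36 for Ano1 and 0.32 for Atp1b1, against a median of 0.18 over all genes.

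Related genes of the same pathways were read from 5 lists of transport genes. In the list of pump subunits and FXYD proteins, 0 of 11 measured genes passed in either direction (median log2 difference −0.14). Fxyd6, another small regulator of the pump, averaged 0.72 ± 0.95 in SHR and 1.68 ± 0.12 in WKY (SD, n = 5 each). SHR 3-3 was at −0.95 and the other SHR arrays at 0.93 to 1.34, against 1.57 to 1.87 in WKY, so the strains did not overlap. The difference was −0.97 ± 0.35 SE (limma adjusted p = 0.145), and without SHR 3-3 it was −0.55 and passed (limma adjusted p = 0.00913). Atp1a4, the pump's testis-type alpha subunit, was well above background on 8 of 10 arrays and differed by −0.69 ± 0.23, also past the threshold without SHR 3-3 (−0.85, limma adjusted p = 0.0357) and −0.15 with normexp background correction and quantile normalisation.

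No gene passed among the 13 measured cation-chloride cotransporters and their WNK, SPAK and OSR1 kinases (median 0.03). The largest differences there were those of Slc12a5, a cotransporter that takes chloride out of neurons, at 0.39 ± 0.15 SE, and of Slc12a8 at −0.32 ± 0.14. Among the 19 measured chloride channels and anoctamins, 0 passed (median −0.02). Clcn4, an intracellular exchanger of chloride for protons, was well above background on 9 of 10 arrays and differed by −0.51 ± 0.21, or by −0.13 with normexp and quantile normalisation. The chloride channel gene Cftr differed by −0.46 ± 0.43, with 0.10 in SHR 3-3 against 2.38 to 2.89 in the other SHR arrays and 2.42 to 2.81 in WKY. Without SHR 3-3 its difference was 0.05.

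In the list of SLC4, SLC9 and SLC26 exchangers 1 of 18 measured genes fell, 0 rose and 17 did not pass (median −0.14), against 4.36% of all genes tested that passed. The one was Slc4a4, the electrogenic sodium-bicarbonate cotransporter NBCe1, with values of 2.75, 2.59, 2.59, 2.53 and 2.70 in SHR 2-1, 2-3, 3-1, 3-3 and 3-4. WKY 1-2, 1-3, 1-5, 4-1 and 4-2 had 3.21, 3.01, 3.29, 3.14 and 2.84. Every SHR array lay below every WKY array. The log2 difference was −0.47 ± 0.10 SE (n = 5 per strain, limma adjusted p = 0.0176), −0.44 without SHR 3-3 and −0.34 with the slide as a fixed block, where it did not pass. Without WKY 1-2 the call was lost (limma adjusted p = 0.0555). In this list 2 genes did not overlap between strains, Slc4a4 lower and the other higher in SHR, against 7.25% of all genes.

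Of the 13 partners in fluid secretion, such as the water channel Aqp5, the muscarinic receptors and the calcium release channels, 0 passed (median 0.10). Chrm1, the muscarinic M1 receptor, differed by −0.60 ± 0.20 SE, a value that had the opposite sign (0.17) with the slide as a fixed block. Without SHR 2-1 it was −0.73 and passed (limma adjusted p = 0.0480). Without any other single array it did not pass (limma adjusted p from 0.0727 to 0.233). SHR 2-1 was the only SHR array on slide 2, so without it no slide held both strains. Car6, the carbonic anhydrase secreted into saliva, averaged 8.41 ± 0.39 in SHR and 7.87 ± 0.12 in WKY (SD, n = 5 each). The strains did not overlap, with SHR at 8.06 to 8.83 and WKY at 7.77 to 8.02, and the difference of 0.54 ± 0.16 missed the threshold (limma adjusted p = 0.0808). It was 0.085 both on the authors' log2 values and with quantile normalisation, and 0.0038 with normexp and quantile normalisation, so its size depends on the scaling. The acinar markers were higher in SHR by their sum and lower by their mean log2 value, as given above, and their part in Car6 was not tested. Normexp and quantile normalisation also gave −0.29 for Chrm1 and 0.22 for Slc12a5. Averaging a gene's probes gave −0.46 for Fxyd6, 0.13 for Slc12a5 and −0.29 for Cftr. A fixed block for the slide gave 0.27 for Car6, −0.57 for Fxyd6, −0.25 for Atp1a4, 0.24 for Slc12a5 and 0.03 for Cftr. Under a random block for the slide, Car6, Fxyd6, Atp1a4, Slc12a5, Clcn4 and Chrm1 passed as well (limma adjusted p from 0.00468 to 0.0446). Slc12a8 and Cftr did not pass there. In that fit 1350 of all 14711 genes were higher and 2101 lower.

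**Figure D4:**
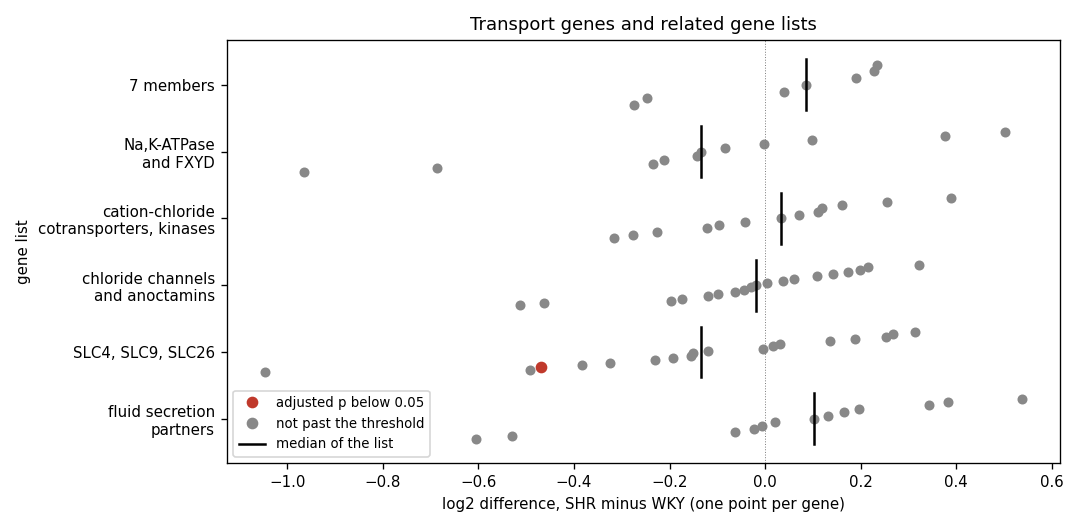
Log2 difference of SHR minus WKY for each measured gene of the 7 transport genes and of 5 lists of related genes, 1 point per gene, with the median of each list as a bar. The red point, Slc4a4 at −0.47, is the only gene past a limma adjusted p of 0.05.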

How the data were processed

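Per the labels, Trizol-extracted RNA was amplified and given Cy3. Agilent Feature Extraction made the deposited processed intensity, per the file headers: it is linear, background-subtracted and detrended, with no normalisation across arrays. A deposited table by the authors has log2 values for 30423 probes whose columns share 1 median (7.19), as quantile normalisation gives; its making is not stated in the labels.

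Spots marked as outliers were set to missing, log2 intensities were reduced by the array's 75th percentile over non-control spots, and spots of 1 probe were averaged. A probe was kept when at least 5 of 10 arrays had it well above background (29266 kept), RefSeq accessions were named through the gene table of GRCr8 (18005 probes), and the brightest kept probe stood for a gene. SHR and WKY, grouped by the sample titles, were compared with limma 3.58.1 in R 4.3.3 without covariates, two-sided, with Benjamini-Hochberg adjustment over all 14711 genes. The design had assumed a mean signal for normexp (offset 50); the files hold the median signal, which took its place. Known changes were put into simulated data to test the fit. The members and lists were chosen with earlier results of these data known. The genes named are the 7 members, up to 4 past the threshold per list or 2 given as values where none passed, and the 3 nearest profiles of the 2 most variable members. Labels describe separate rats. Figures were drawn with matplotlib 3.10.9. 1 gene is counted in its list but not reported here.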

Additional observations from a re-analysis of the deposited data

Results flagged for a closer look

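Within a strain, 1 array lay far from the other 4 in 5 of the 42 sets of values examined. Chance alone marks about 1 set in 20 among independent, unselected sets. The sets here share arrays and include genes picked for large strain differences, so no excess over chance can be read from the count. In array SHR 3-3 the marked values were the brighter Fxyd2 probe at −0.62 (the other SHR arrays at 0.82 to 1.19), Fxyd6 at −0.95 (0.93 to 1.34) and Cftr at 0.10 (2.38 to 2.89). In WKY, Slc4a7 was at −3.19 in WKY 4-1 (the others at −2.83 to −2.77) and Atp1a4 at −3.72 in WKY 1-2 (−4.37 to −4.23).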

How the results depend on the processing

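Under 26 alternatives, 1 of them (the 75th percentile over probes in place of spots) chosen after seeing the data, no member was lower past the threshold and 1 was higher, with the slide as a random block (Slc12a2, 0.24, limma adjusted p = 0.0203). Over its alternatives the adjusted p of Slc12a2 was 0.0203 to above 0.99. The median of the members was 0.05 to 0.12 without 1 array. Single members were 0.03 to 0.35 for Ano1, 0.08 to 0.36 for Atp1b1, −0.025 to 0.12 for Clcn2, −0.40 to 0.049 for Fxyd2, 0.21 to 0.28 for Slc12a2, −0.30 to −0.17 for Slc4a2 and 0.01 to 0.12 for Slc4a7. The signs that turned were those of Clcn2 without SHR 3-4 (−0.017) or WKY 1-2 (−0.025) and of Fxyd2 without SHR 3-3 (0.049).

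Over all genes, 222 were higher and 419 lower. Without 1 array the counts were 125 to 237 higher and 218 to 512 lower. Higher genes numbered 351 with quantile normalisation, 336 with median scaling and 423 with the authors' values. Counts higher and lower were 12 and 32 with the slide as a fixed block, 14 and 38 on slide 2 alone, 1350 and 2101 with the slide as a random block, and 669 and 1110 with a random block for the first number of the title (estimated correlation −0.16). The causes of these differences were not tested. No paired analysis was possible because the strains share no title number. Differences smaller than the intervals given could not be resolved with 5 arrays per strain.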
